A study of Rattus norvegicus with 34 samples.

Results

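MeDIP-poor deserts of the rat sperm genome were defined as runs of at least 10 consecutive 1 kb windows on chromosomes 1 to 20 in which every window had a mean above 0 and below 0.15 RPKM over the 6 F1 control pools. RPKM is the number of reads per kilobase of window, scaled by the reads of the library. The rule found 1791 runs holding 22008 windows, which is 0.84% of the 2618741 windows of these chromosomes. The whole series holds 2782040 windows. The members were thus chosen by the low values of the F1 control pools, and those values are given as a description without a test.

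The libraries come from methylated DNA immunoprecipitation sequencing (MeDIP-seq) of mature sperm from the cauda epididymis of outbred Hsd: Sprague Dawley SD rats. The F2 ifosfamide group has 6 pools of 8 to 9 males, the F1 ifosfamide group 6 pools of 3 to 4 males and the F1 control group 6 pools of 3 to 4 males. None of these animals was injected. Their F0 forefathers, 5 males for the ifosfamide lineage and 3 for the control lineage, received 8.5 mg/kg ifosfamide, an alkylating chemotherapy drug, or 1.1 mL/kg phosphate-buffered saline on days 26, 29 and 32 of age. F2 males came from matings of unrelated F1 rats within the lineage, and no F2 control pool was analysed. The labels give 43 F2 ifosfamide males, fewer than 6 pools of 8 would need, so it is not known whether these pools share males. Libraries held 27424144 to 36309987 window counts in F2 ifosfamide, 25531658 to 39440265 in F1 ifosfamide and 23336048 to 34051679 in F1 control pools.

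In MeDIP an antibody against methylated cytosine pulls down denatured DNA fragments, so the read density follows both how much of the DNA is methylated and how many CpG sites it has. Mammalian sperm DNA is methylated at most CpG sites outside CpG-rich promoters, while long stretches of the genome hold few CpG sites because methylated cytosine mutates readily to thymine. A stretch with few reads can therefore be poor in CpG sites, unmethylated, or hard to align reads to. Without a genome sequence or annotation of the same build (Rnor_6.0) these cannot be told apart, and runs are given by Rnor_6.0 coordinates counted from 1, without genes or sequence.

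Most deserts were short. The median run was 11 kb long and the third quartile 13 kb, and 581 runs had the minimum length of 10 windows. Runs of 10 to 12 windows made up 69.8% of all runs, 74 runs were 20 kb or longer and 6 were 30 kb or longer. Together the runs covered 22.0 Mb. Low windows as such were common, with 700134 windows (26.7%) above 0 and below the limit, but only 3.14% of those lay in runs long enough to be members. A further 981 runs of 9 windows just missed the minimum length. Just inside the limit, 694 member windows had a control mean of 0.14 RPKM or more, with a highest value of 0.148 RPKM. Just outside it, 51 of the windows that ended a run had a control mean of exactly 0.15 RPKM.

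**Figure D1:**
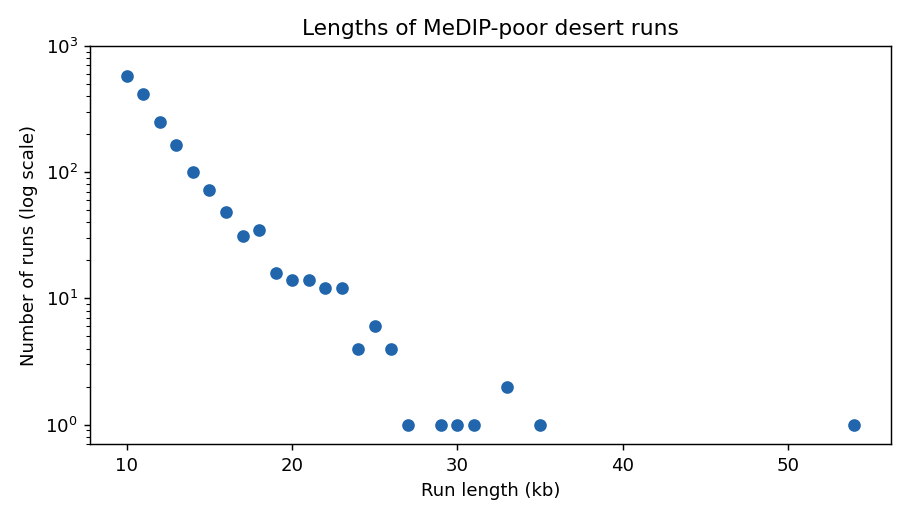
Number of desert runs (log scale) against run length in kb, 1 point per length that occurred. The number falls steeply from 581 runs of 10 kb, and a single run of 54 kb stands apart from the next longest of 35 kb.

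The longest desert was a run of 54 kb on chromosome 1 at 121173001 to 121227000. Its level is given as counts per kb in 1000000 counts on chromosomes 1 to 20 (CPM per kb), the scale used below for every level. In F2 ifosfamide pools the run held 72, 89 and 117 counts (lowest, median and highest pool), in F1 ifosfamide pools 88, 99.5 and 114, and in F1 control pools 60, 79 and 93. Its level averaged 0.0561 ± 0.00532 in F2 ifosfamide, 0.0581 ± 0.00905 in F1 ifosfamide and 0.0525 ± 0.00699 in F1 control pools (SD, n = 6 each). Pools of all groups overlapped there, although the control libraries were smaller on average.

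The other 9 of the 10 longest runs lay on chromosome 18 at 35097001 to 35132000, chromosome 13 at 6069001 to 6102000, chromosome 17 at 36888001 to 36921000, chromosome 14 at 65942001 to 65973000, chromosome 2 at 35485001 to 35515000 and 36005001 to 36031000, chromosome 1 at 110399001 to 110425000 and 117542001 to 117571000, and chromosome 7 at 3568001 to 3595000. Both runs of chromosome 2 lie within 1 bin of 5 Mb. Their F1 control levels ran from 0.0335 ± 0.00877 on chromosome 7 to 0.0592 ± 0.0111 at 36005001 on chromosome 2 (SD, n = 6 each). Runs of 20 kb or more had slightly lower levels than the shortest runs. Their median level was 0.0458 in F2 ifosfamide and 0.0489 in F1 ifosfamide pools over 74 runs, while that of the 581 runs of 10 kb was 0.0575 in F2 ifosfamide and 0.0604 in F1 ifosfamide pools.

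The emptiest run by control mean was 14 kb long, on chromosome 8 at 42940001 to 42954000. It held 4, 7 and 8 counts in F2 ifosfamide pools (lowest, median and highest), 0, 5 and 7 in F1 ifosfamide pools and 2, 4.5 and 7 in F1 control pools. The next, on chromosome 2 at 35382001 to 35393000, held 2, 2.5 and 4 counts in F2 ifosfamide, 2, 3 and 7 in F1 ifosfamide and 4, 4 and 5 in F1 control pools. The groups overlapped in both runs, and neither run had counts enough to enter the test described below. Both bordered a window without counts in the control pools.

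At the other end, the runs with the highest control means lay on chromosome 7 at 112850001 to 112862000 and on chromosome 20 at 53767001 to 53777000. The first averaged 0.125 ± 0.0256 in F2 ifosfamide, 0.0938 ± 0.013 in F1 ifosfamide and 0.0944 ± 0.0115 in F1 control pools (SD, n = 6 each). The second averaged 0.0934 ± 0.0245 in F2 ifosfamide, 0.0966 ± 0.0189 in F1 ifosfamide and 0.0941 ± 0.018 in F1 control pools. Even these upper runs stayed below the median of the other windows.

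Deserts were present on all 20 autosomes and were spread unevenly. Chromosome 13 had the highest share, with 135 runs and 1.49% of its windows in them, followed by chromosome 2 (232 runs, 1.09%), chromosome 1 (238 runs, 1.07%) and chromosome 4 (152 runs, 1.01%). Chromosome 19 had the lowest, with 11 runs and 0.212% of its windows, and chromosomes 10 (37 runs, 0.404%), 20 (19 runs, 0.415%) and 12 (20 runs, 0.463%) were low too. Single low windows varied less between chromosomes, from 17.0% of windows on chromosome 12 to 30.1% on chromosome 2. On chromosome 13, 5.25% of the low windows belonged to runs, against 3.62% on chromosome 2 and 1.03% on chromosome 19. Across the 20 chromosomes, the share of windows in runs went with a lower median level of all windows in F2 ifosfamide pools (Spearman's rho -0.62, Pearson's r -0.69). This is a description over 20 chromosomes measured in the same libraries, and these include the desert windows themselves.

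**Figure D2:**
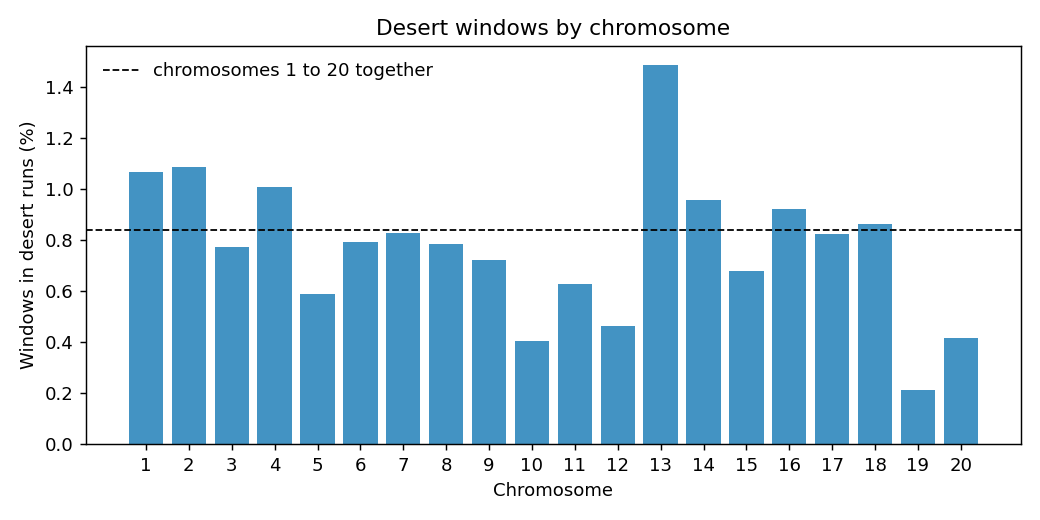
Share of each chromosome's 1 kb windows that lay in desert runs (bars, in %), with the share over chromosomes 1 to 20 as a dashed line. Chromosome 13 stands highest at 1.49% and chromosome 19 lowest at 0.212%.

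Within chromosomes the runs gathered in certain segments. Of 525 bins of 5 Mb, 130 (24.8%) held no start of a run and 42 held 10 or more, with a median of 2 per bin. The 50 fullest bins held 41.6% of all member windows. The fullest was the first 5 Mb of chromosome 13, with 38 starts of runs and 10.4% of its windows in runs, where 50.4% of windows were low and 10.8% had no counts in any control pool. The bin of chromosome 1 from 115000001 to 120000000 followed with 39 starts and 10.0% of its windows, and the bin of chromosome 4 from 100000001 to 105000000 with 33 starts and 8% of its windows. These bins were picked by their counts of members. Neighbouring runs lay a median of 302 kb apart, and 31.6% of 1771 neighbouring pairs were at most 100 kb apart. In 46 pairs a single window separated them.

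The ends of chromosomes held more desert than the rest. In the first and last 2 Mb of the chromosomes, 1515 windows (1.89%) were members, against 0.807% elsewhere. The first 2 Mb of chromosome 13 held 382 of these windows, and without chromosome 13 the shares were 1.43% at the ends and 0.792% elsewhere. The share was higher at the ends than elsewhere on 13 of 20 chromosomes. Members were also counted in 4 segments named in other work on these data. They made up 1.60% of windows on chromosome 14 at 46 to 47 Mb (16 windows in 1 run), against 0.84% over chromosomes 1 to 20. On chromosome 1 at 54 to 56 Mb the share was 1.15% (2 runs). It was 0.55% in the last 2 Mb of chromosome 7 (1 run) and 0% on chromosome 7 at 61 to 62 Mb.

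The edges of the runs were of several kinds. Of 3582 ends, 31.4% met a window of 0.30 RPKM or more in the control pools, 27.9% a window of 0.20 to below 0.30, 25.9% a window of 0.15 to below 0.20 and 14.8% a window with a mean of 0. At least 1 end met a window of 0 in 447 runs (25.0%). Those runs had lower levels, with medians of 0.0461 in F2 ifosfamide and 0.0467 in F1 ifosfamide pools, than the other 1344 runs, with 0.0581 in F2 ifosfamide and 0.0608 in F1 ifosfamide pools. Windows of 0 in all 6 control pools made up 4.91% of the windows of chromosomes 1 to 20, and their share was 7.56% in the second window outside a run and 9.66% in the tenth.

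Deserts lay in neighbourhoods that were themselves poor. Inside the runs, the outermost window had a median level of 0.0559 in F2 ifosfamide and 0.0601 in F1 ifosfamide pools, and windows 5 kb inside had 0.0451 and 0.0475 in the same groups. The first window outside had a median of 0.199 in F2 ifosfamide and 0.189 in F1 ifosfamide pools, and that step is set by the rule, which ends a run only at a window outside the limits. Beyond it the median dropped again, to 0.108 in F2 ifosfamide and 0.107 in F1 ifosfamide pools 5 kb outside and to 0.115 and 0.114 at 20 kb. Over all other windows of chromosomes 1 to 20 the median was 0.235 in F2 ifosfamide and 0.233 in F1 ifosfamide pools. The mean levels outside the runs were higher than the medians, at 0.225 in F2 ifosfamide and 0.226 in F1 ifosfamide pools 5 kb outside. Over all other windows the mean was 0.385 in F2 ifosfamide and 0.385 in F1 ifosfamide pools.

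**Figure D3:**
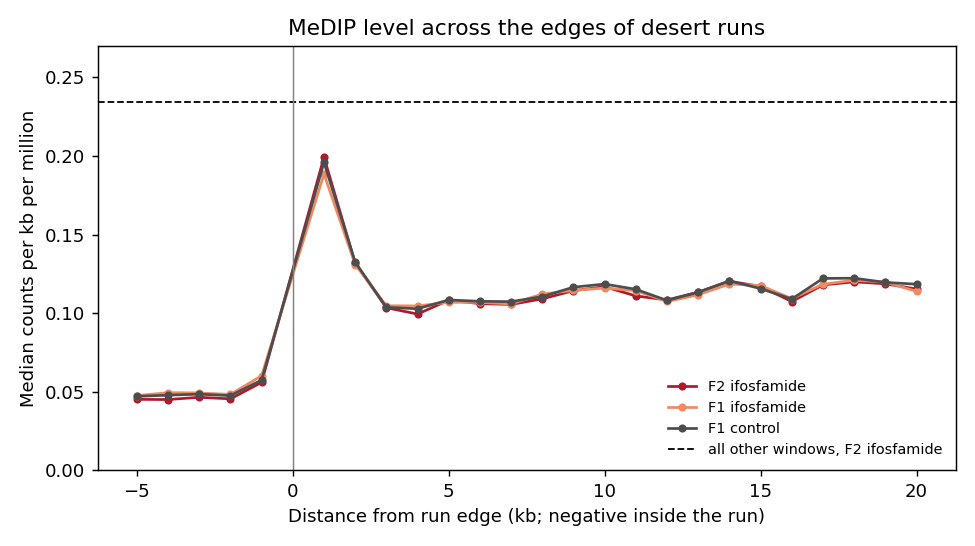
Median level over both ends of all 1791 runs (CPM per kb) by distance from the run edge in kb, negative inside the run, for the 3 groups as coloured lines. The lines of the groups lie on each other, rise at the first window outside, where the rule ends a run, and then stay near 0.11, below the dashed line at 0.235 for all other windows in F2 ifosfamide pools.

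Set against the other windows, the deserts took a small and similar share of the reads in every pool. They held 0.122% ± 0.00405 of the counts of chromosomes 1 to 20 in F2 ifosfamide, 0.125% ± 0.00697 in F1 ifosfamide and 0.118% ± 0.00525 in F1 control pools (SD, n = 6 each), in 0.84% of the windows. The share ran from 0.118% to 0.129% in F2 ifosfamide pools, from 0.120% to 0.138% in F1 ifosfamide pools and from 0.111% to 0.127% in F1 control pools. The groups overlapped. The density of the other windows was 6.94 ± 0.227 times that of the deserts in F2 ifosfamide, 6.80 ± 0.355 times in F1 ifosfamide and 7.18 ± 0.315 times in F1 control pools. In a single pool, 24.3% to 34.4% of member windows of the ifosfamide groups held no count, against 8.78% to 11.4% of the other windows.

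**Figure D4:**
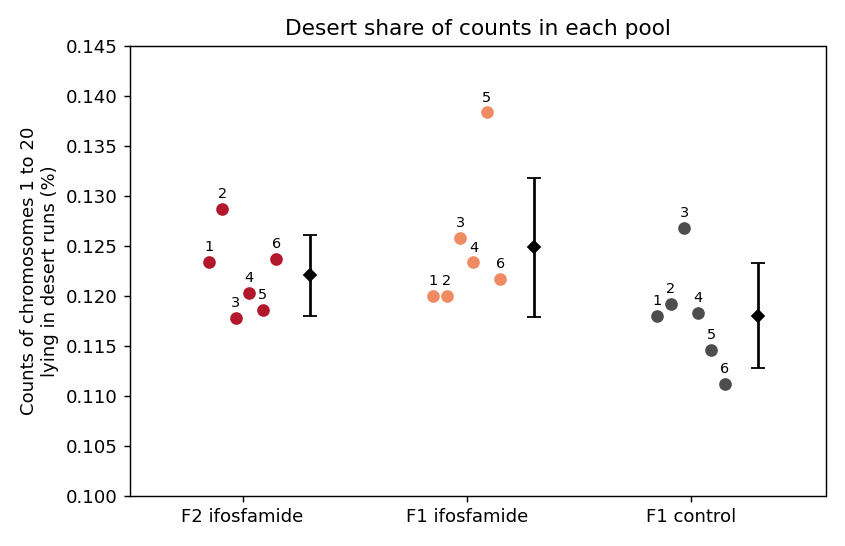
Share of the counts of chromosomes 1 to 20 that lay in desert runs (in %; the axis does not start at 0), 1 numbered point per pool, with the group mean and SD as a diamond with bars (n = 6 pools). The groups overlap, and F1 ifosfamide pool 5 at 0.138% is the highest of the 18 pools.

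F1 ifosfamide pool 5 stood apart in the deserts. Its share was 13.3% above the mean of the other 5 pools of its group, above that mean on 20 of 20 chromosomes, and it was the highest pool of its group in 564 of 1791 runs (31.5%), while the other pools were each highest in 12.5% to 16.3%. Without it the F1 ifosfamide mean was 0.122%, the same to 3 digits as that of F2 ifosfamide. The low windows outside the runs moved with it. They held 5.74% of the counts in that pool and 4.51% to 5.38% in the other 17 pools, and their part in the result was not tested. Pool 5 also had the fewest counts of its group, and 41.0% of its counts lay in its own strongest 10% of windows, against 40.0% to 40.7% in the other F1 ifosfamide pools. In the F1 control group, pool 3 had the highest share (0.127%) and pool 6 the lowest (0.111%). That pool 3 was 9.10% above the mean of its other pools, on 19 of 20 chromosomes, and highest in 24.0% of runs. F2 ifosfamide pool 2 was 6.61% above its own group's other pools, also on 19 of 20 chromosomes, and highest in 23.2% of runs.

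The mean desert share was 3.44% higher in F2 ifosfamide and 5.80% higher in F1 ifosfamide than in F1 control pools. The control pools chose the runs by their own low values, so these differences are a description without a test. How far the choice lowers the values of the pools that choose was measured by rebuilding the runs from 5 control pools and reading the pool left out. The left-out control pool then had a share 6.53% ± 5.47 above the mean of the 5 that chose (SD, n = 6, from -0.117% to 15.7%). Over those rebuilt runs the mean share was 0.113% ± 0.00446 in F2 ifosfamide pools, 0.116% ± 0.00424 in F1 ifosfamide pools and 0.115% ± 0.00588 in the left-out control pools (SD over 6 rebuilds, which share most of their pools). By single run, the median log2 ratio to F1 control was 0.04 for F2 ifosfamide (997 of 1791 runs above 0) and 0.07 for F1 ifosfamide (1117 of 1791 above 0), and the ratios share the same control pools.

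Most member windows stayed low in sperm that did not choose them. In F2 ifosfamide pools 20122 of the 22008 windows (91.4%) were again above 0 and below 0.15 RPKM, and in F1 ifosfamide pools 20257 (92.0%). Of the rest, 1320 windows in F2 ifosfamide and 1330 in F1 ifosfamide pools were at or above the limit, and 566 in F2 ifosfamide and 421 in F1 ifosfamide pools had a mean of 0. Low windows outside the runs were again low in 86.8% of cases in F2 ifosfamide and 85.2% in F1 ifosfamide pools. Most windows that crossed the limit had been close to it. Of the 4400 windows with a control mean of 0.10 to below 0.15 RPKM, 24.6% were at or above the limit in F2 ifosfamide and 24.4% in F1 ifosfamide pools. Of the 9701 windows with a control mean below 0.05 RPKM, 5 in F2 ifosfamide and 2 in F1 ifosfamide pools were.

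By the rule, 1 window at the limit is enough to split a run. Applied to the mean of the F2 ifosfamide pools, the same rule gave 1781 runs with 21999 windows, and 11620 of these were shared with the control-chosen runs, which is 52.8% of either list. Applied to the F1 ifosfamide pools it gave 1801 runs with 22672 windows, of which 12272 were shared, 54.1% of that list and 55.8% of the control-chosen list. The numbers and lengths were thus alike, with longest runs of 41 kb in F2 ifosfamide, 52 kb in F1 ifosfamide and 54 kb in F1 control pools. In 677 runs (37.8%) every window was low again in F2 ifosfamide pools and in 698 runs (39.0%) in F1 ifosfamide pools. In 382 runs (21.3%) every window was low in all 3 groups.

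Sperm of the 2 generations of the ifosfamide lineage, neither of which chose the runs, were compared by a test. Counts were summed over each run and over blocks of up to 10 windows of the remaining autosomes, and F2 ifosfamide was set against F1 ifosfamide with edgeR's quasi-likelihood test and Benjamini-Hochberg adjustment over all features. Summing was needed because a member window had a median of 18 counts over the 12 pools together, and 1 of 22008 windows passed the filter on low counts by itself. A run had a median of 244 counts over the 12 pools and 20 per pool. The filter left 1735 of the 1791 runs. F2 pools also hold more males than F1 pools, so generation and pool size cannot be told apart. With adjusted p below 0.05, 1 run was called higher and 1 run was called lower in F2 ifosfamide sperm, 2 in all, while 1.99% of all 256911 features tested were called, 1.19% higher and 0.803% lower. Leaving out single pools gave 1 to 6 called runs, the most without F1 ifosfamide pool 1 (5) or 2 (6). It was 1 without F2 ifosfamide pool 3, 5 or 6 or F1 ifosfamide pool 3 or 6. The calls over all features moved too, from 5123 with all pools. They numbered 9159 of 257072 without F1 ifosfamide pool 1 and 7431 of 257076 without pool 2. Where 1 run was called they numbered 1984 to 3305. Without F2 ifosfamide pool 1 they numbered 7462 with 2 runs called, and without F2 ifosfamide pool 4 2326 with 3. The called runs were not always the same ones. Without F2 ifosfamide pool 5 neither of the 2 runs was called, so the 1 run called there was another. Without F1 ifosfamide pool 5 or F2 ifosfamide pool 1 the number stayed at 2, but the lower run was not called and another run was. The share among the runs was below the background of all features, and their error was larger, with a median SE of the log2 fold change of 0.21 in runs and 0.10 over all features.

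The run that was higher in F2 ifosfamide lay on chromosome 3 at 143391001 to 143403000, is 12 kb long and borders a window without control counts. It held 12, 26 and 41 counts in F2 ifosfamide pools (lowest, median and highest), 6, 13.5 and 20 in F1 ifosfamide pools and 3, 6 and 13 in F1 control pools. Its level averaged 0.0771 ± 0.0336 in F2 ifosfamide, 0.0349 ± 0.00965 in F1 ifosfamide and 0.0225 ± 0.0147 in F1 control pools (SD, n = 6 each), and the pools of F2 and F1 ifosfamide overlapped. The log2 fold change of F2 over F1 ifosfamide was 1.07 with an SE of 0.24, and edgeR gave an adjusted p of 0.00801. Without F2 ifosfamide pool 5 it was 0.87 with adjusted p = 0.0575 by the same edgeR test.

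The run that was lower in F2 ifosfamide lay on the same chromosome at 90037001 to 90047000 and is 10 kb long. It held 5, 9.5 and 15 counts in F2 ifosfamide pools, 16, 20 and 27 in F1 ifosfamide pools and 9, 13.5 and 20 in F1 control pools. Its level averaged 0.0342 ± 0.0153 in F2 ifosfamide, 0.0646 ± 0.0136 in F1 ifosfamide and 0.0498 ± 0.0106 in F1 control pools (SD, n = 6 each), with the control mean between those of the ifosfamide groups. The counts of F2 and F1 ifosfamide pools did not overlap, but the levels scaled by library did. The log2 fold change was -0.92 with an SE of 0.25, and edgeR gave an adjusted p of 0.0364. The call ended without any of F1 ifosfamide pools 3, 5 and 6 or F2 ifosfamide pools 1, 3, 5 and 6, with adjusted p up to 0.126 by edgeR.

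**Figure D5:**
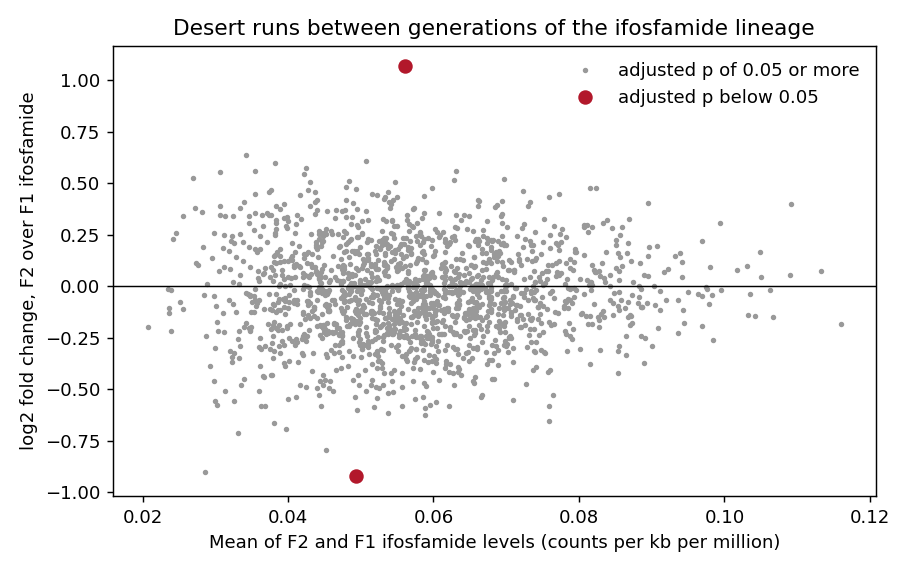
Log2 fold change of F2 over F1 ifosfamide for the 1735 desert runs tested, against the mean level of both groups (CPM per kb). The 2 runs with adjusted p below 0.05 are drawn large and lie at 1.07 and -0.92, and the scatter of the other runs narrows to the right.

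Over the runs tested, the median log2 fold change was -0.04, with 745 runs above 0 and 990 below, and 90% of runs lay between -0.41 and 0.34. Over all features tested the median was 2.02e-05, and 90% lay between -0.25 and 0.27. At an unadjusted p below 0.05 there were 109 runs (6.28%), 36 higher and 73 lower, against 16.0% of all features. The balance moved with F1 ifosfamide pool 5, the pool with the highest desert share. Without it the median was -0.01, with 837 runs above 0 and 915 below, and 61 runs were higher and 45 lower at an unadjusted p below 0.05. Among the long runs, that of chromosome 7 at 3568001 to 3595000 came closest to the threshold with a log2 fold change of -0.58 ± 0.18 (SE) and an edgeR adjusted p of 0.0807. Its levels were 0.0176, 0.024 and 0.0307 in F2 ifosfamide pools (lowest, median and highest) and 0.0298, 0.0366 and 0.0406 in F1 ifosfamide pools, so the groups overlapped in their outermost pools.

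The other 9 of the 10 longest runs had log2 fold changes from -0.41 at 117542001 on chromosome 1 to 0.31 on chromosome 14, with adjusted p of 0.196 or more by edgeR. On chromosome 14 the level averaged 0.0383 ± 0.00556 in F2 ifosfamide and 0.0309 ± 0.00643 in F1 ifosfamide pools (SD, n = 6 each). The 54 kb run had a log2 fold change of -0.04 with the smallest error of these runs (SE 0.11), and edgeR's adjusted p was 0.905. Levels scaled by library did not overlap between F2 and F1 ifosfamide in 2 runs, against 1.30% of all features. The first, on chromosome 8 at 96140001 to 96151000, had 0.0671 to 0.099 in F2 ifosfamide and 0.0462 to 0.0655 in F1 ifosfamide pools. The second, on the same chromosome at 37556001 to 37570000, had 0.0215 to 0.0446 in F2 ifosfamide and 0.0448 to 0.0727 in F1 ifosfamide pools. Neither had an adjusted p below 0.05, and both were picked for their values.

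The spread between pools of the same group was alike in the runs and in other blocks of similar total counts. The chi-square of the counts per degree of freedom had a median of 1.19 in F2 ifosfamide and 1.27 in F1 ifosfamide pools over the runs, and of 1.15 in F2 ifosfamide and 1.22 in F1 ifosfamide pools over those blocks, where counting error alone gives 0.870. Over both ifosfamide groups together the median of the runs was 1.30, where counting error alone gives 0.934. A read fell in 1.16 to 1.25 windows on average, and the part of this in the median of 1.30 was not tested. The chi-square over both groups was above 3 in 41 runs (2.29%) and above 5 in 9. The windows of a run were also uneven among themselves, with a median variance over mean of 4.4 in F2 ifosfamide and 4.36 in F1 ifosfamide pools for the summed counts of the windows of a run, where Poisson counting gives 1.

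The most uneven runs, picked for this spread, are given pool by pool. On chromosome 13 at 33916001 to 33929000 the counts in F2 ifosfamide pools 1 to 6 were 3, 3, 5, 3, 3 and 16, in F1 ifosfamide pools 2, 1, 21, 2, 1 and 4, and in F1 control pools 13, 37, 13, 5, 16 and 24. In this run F2 ifosfamide pool 6 and F1 ifosfamide pool 3 held 16 and 21 counts, and the other ifosfamide pools held at most 5. A run on chromosome 1 at 63960001 to 63972000 held 36, 27, 39, 31, 15 and 16 counts in F2 ifosfamide pools, 12, 14, 13, 23, 46 and 29 in F1 ifosfamide pools and 23, 15, 14, 21, 13 and 5 in F1 control pools. Its neighbour at 63920001 to 63935000 had a similar order of F1 ifosfamide pools, with 16, 10, 22, 40, 47 and 29 counts. In both neighbouring runs F1 ifosfamide pool 5 was the highest, and the 2 runs lie 25 kb apart. A run on chromosome 8 at 43130001 to 43141000 held 10, 48, 7, 18, 30 and 11 counts in F1 ifosfamide pools, with pool 2 highest.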

How the data were processed

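MeDIP-seq libraries of pooled sperm DNA were analysed for 18 of the 34 samples in the labels, namely 6 F2 ifosfamide, 6 F1 ifosfamide and 6 F1 control pools, and the other 16 were not analysed here. Sperm were sonicated and washed to remove other cells before extraction and pooling, per the labels. FastQC, Trimmomatic, Bowtie2, SAMtools and edgeR are named with the Rnor_6.0 build per the submitters' processing notes, without versions or settings. The authors' deposited counts per 1 kb window, named as such per the file headers, are whole numbers that were not normalized. The authors' deposited RPKM values, which the file headers name as rpkm and which have 2 decimals, served to find the runs. The F1 control columns were identical in both deposited tables.

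Runs were found with Python 3.11.15 and NumPy 2.4.6. The members and the rules were chosen with earlier results of these data known. Levels are counts per kb scaled to 1000000 counts on chromosomes 1 to 20, which held 22644299 to 38303625 counts per pool. Window counts exceeded the reads recovered from the RPKM by 1.16 to 1.25 times, so neighbouring windows share reads. The runs and 260510 blocks of at most 10 windows of the other autosomal windows were fitted with edgeR 4.0.16 in R 4.3.3 (TMM normalization, filterByExpr with a minimum count of 10, two-sided quasi-likelihood test without covariates on the 12 ifosfamide pools). Benjamini-Hochberg adjustment covered all features tested. The SE of a log2 fold change was derived from the fit, as the absolute log2 fold change over the square root of the test's F statistic. It is therefore approximate. Pools were treated as independent replicates, so p-values measure the spread between pools and not between males. With 43 males in the labels, F2 ifosfamide pools may share males, and all ifosfamide pools descend from 5 F0 males. Whether this affects the p-values was not tested. Named runs are the 10 longest, the 2 lowest and 2 highest by control mean, and the called runs. Other runs named in the text were chosen after their values were seen, which is said beside them. Alternatives covered the limit, the run length, windows of 0, each pool, normalization, filter, blocks, the replicate number as a block, limma 3.58.1 and DESeq2 1.42.0. CpG content, alignability and genes of the runs are not given, for want of a genome of that build.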

Additional observations from a re-analysis of the deposited data

Results flagged for a closer look

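The highest or lowest pool of a group was set against the other 5 by its gap to the nearest pool over the range of the group, in 51 groups of 6 pools (the desert share and the level of each named run). That ratio was above Dixon's critical value for 6 samples in 6 of them, of which 3 are F1 control values. The control values chose the runs, so they are a description without a test. Chance alone flags about 1 group in 20, and the number of flags was not tested against that rate. The desert share of F1 ifosfamide pool 5, at 0.138% of counts, lay far above the other pools of that group. In the 35 kb run of chromosome 18 at 35097001, the lowest F1 control pool had a level of 0.0283. In the run of chromosome 14 at 65942001, the highest F1 control pool had 0.0525. In the run of chromosome 1 at 110399001, the highest F2 ifosfamide pool had 0.0764. In the run of chromosome 2 at 35382001, one of the emptiest, the highest F1 ifosfamide pool had 0.0256, which is 7 counts. In the run of chromosome 20 at 53767001, the highest F1 control pool had 0.128.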

How the results depend on the processing

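The runs depend on the rule that defines them. With the upper limit at 0.10 RPKM there were 414 runs and 4962 windows, and shares of counts of 0.0190% in F2 ifosfamide, 0.0192% in F1 ifosfamide and 0.0179% in F1 control pools. With the limit at 0.20 RPKM there were 4886 runs and 61875 windows, and shares of 0.450%, 0.458% and 0.439% in the same groups. A minimum of 5 windows gave 21593 runs and 140547 windows, with 0.881% in F2 ifosfamide, 0.912% in F1 ifosfamide and 0.854% in F1 control pools. A minimum of 20 windows gave 74 runs and 1736 windows, with 0.00832% in F2 ifosfamide, 0.00835% in F1 ifosfamide and 0.00802% in F1 control pools. With windows of 0 allowed there were 7151 runs and 120297 windows, with 0.283% in F2 ifosfamide, 0.284% in F1 ifosfamide and 0.271% in F1 control pools. Runs rebuilt without each F1 control pool in turn numbered 1577 to 1736, with shares of 0.109% to 0.120% in F2 ifosfamide, 0.112% to 0.123% in F1 ifosfamide and 0.105% to 0.116% in F1 control pools. In all these settings, each of which kept F1 ifosfamide pool 5, the mean share was higher in F1 than in F2 ifosfamide pools. Over the 1791 runs, the F1 ifosfamide mean without pool 5 was 0.1222%, against 0.1221% in F2 ifosfamide pools. The settings were not repeated without that pool. In these settings the mean share was lowest in the F1 control pools that chose the runs. Control pools left out of the choice averaged 0.115%, against 0.113% in F2 ifosfamide pools over the same runs. The median log2 difference of run levels, F2 over F1 ifosfamide, stayed below 0. By edgeR the median was 0.00079 with a minimum of 20 windows (37 runs above 0 and 37 below), and 115 runs were above 0 and 117 below with a minimum count of 30.

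The number of runs called by edgeR was 2 without TMM, without a filter, with blocks of 20 windows, with all 3 groups fitted, and by limma. It was 0 with a minimum count of 30 (232 runs tested, 5 higher and 10 lower at an unadjusted p below 0.05). It was also 0 with a minimum of 20 windows (74 runs tested, 4 higher and 6 lower at that threshold). Neither called run of chromosome 3, 12 kb and 10 kb long, was among the runs tested in these 2 settings, so they could not be called. All features called numbered 5207 of 245058 and 5346 of 256665 there. With the limit at 0.10, 1 of 353 runs was called, and 5285 of 256756 features. At 0.20, 5 of 4844 runs were called, and 5292 of 257043 features. DESeq2 called 0, but gave no adjusted p for 1734 of 1735 runs, and 78 runs had an unadjusted p below 0.05, against 113 in limma. Leaving out single ifosfamide pools gave 1 to 6 runs, not always the same ones. It was 1 without F2 ifosfamide pool 3, 5 or 6 or F1 ifosfamide pool 3 or 6, 5 without F1 ifosfamide pool 1 and 6 without F1 ifosfamide pool 2. The cause was not tested.

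The replicate numbers do not pair the pools (same-number correlations of deviations from -0.12 to -0.02, and 0 of 6 pools correlated best with their own number). With the replicate block 1 run was called, and 3348 of all 256911 features. The lower run of chromosome 3 then had adjusted p = 0.0634 by edgeR. Its adjusted p ranged from 0.0226 to 0.126 over 18 alternatives, and that of the higher run from 0.00117 to 0.0575. Of the named runs that were not called, 4 changed sign, all with values near 0. The log2 fold change without single pools ran from -0.0934 to 0.0232 for the run at 121173001 on chromosome 1, -0.0823 to 0.0604 for that at 110399001 on chromosome 1, -0.0964 to 0.0869 for that at 35485001 on chromosome 2, where limma gave -0.00593, and -0.136 to 0.0818 for the run of chromosome 20.

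A run had a median of 20 counts per ifosfamide pool, and the median SE was 0.21 on the log2 scale. Whether depth limits the calls was not tested.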

Other observations

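Single member windows with a mean of 0.30 RPKM or more in pools that did not choose them numbered 9 in F2 ifosfamide and 4 in F1 ifosfamide pools. They were picked for these values, and the rule held their F1 control means below 0.15 RPKM. Their distance from F1 control was thus set in advance by both choices. One of these windows, on chromosome 1 at 63061001 to 63062000, was in both lists, with 0.36 RPKM in F2 ifosfamide, 0.407 RPKM in F1 ifosfamide and 0.127 RPKM in F1 control pools. Its counts were 3, 10 and 15 in F2 ifosfamide pools (lowest, median and highest), 6, 11 and 18 in F1 ifosfamide pools and 1, 3 and 5 in F1 control pools. On chromosome 3 at 143399001 to 143400000, inside the run called higher in F2 ifosfamide, the mean was 0.332 RPKM in F2 ifosfamide pools and 0.08 RPKM in F1 control pools. The counts there were 3, 9.5 and 11 in F2 ifosfamide pools and 0, 0.5 and 6 in F1 control pools.

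When windows with a mean of 0 were allowed inside runs, the longest stretch was 170 kb, and 3913 of the 7151 runs had a mean of 0 in at least 50% of their windows. Windows of 0 made up 56.7% of the windows of those runs, and 1344 runs held none.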
